A study of Homo sapiens with 2 samples.

Results

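The genes studied here encode the DNA replication machinery. They are a list of 50 genes for origin recognition, helicase loading and activation, clamp and clamp loader, polymerases, fragment joining and fork protection, out of 20037 protein-coding genes. They were taken by name, in 12 complexes or role groups, and 50 of 50 were found in the RefSeq gene table. The cells were CAL27, a human line grown from an oral squamous carcinoma. Lysine lactylation was mapped with CUT&Tag, which uses an antibody (here one that binds lactylated lysine in any protein, not in 1 histone site) to bring a DNA-cutting transposase to the modification. One library came from CAL27 cells given 10 mM lactate for 24 hours and the other from CAL27 cells with no treatment, so each group had 1 library. With nothing to measure replicate spread, differences between the libraries are described without tests. The 95% intervals are exact Clopper-Pearson limits for counting error alone. They treat the genes of a list as independent draws, though these were chosen by name, and are no test against other genes. Tags, too, are not independent molecules.

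Both peak lists carry headers that disagree with the sample labels. The run name, the input file and all 58929 peak summits listed for the lactate sample bear the untreated sample's name, and all 49750 summits listed for the untreated sample bear the lactate sample's name. In each list the run name and the summit names also differ from the name line of the same header. The labels were kept, as the lactate-labelled and the untreated-labelled library, and an exchange of the lists would turn every direction given here. The lactate-labelled library held 15120031 tags and 50352 peak regions, and the untreated-labelled library 15696147 tags and 43680 regions. Of 8 squamous epithelial marker genes, 5 and 3 carried a region at an end in the lactate-labelled and untreated-labelled libraries, with KRT14, DSG3 and TP63 unmarked in both. Of 15 markers of blood, neural, liver, fibroblast and endothelial cells, 6 were marked in each. Both marker sets lay around the shares of all protein-coding genes marked, 49.5% in the lactate-labelled and 43.5% in the untreated-labelled library.

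Replication starts at origins that the origin recognition complex binds. CDC6 and CDT1 then load the MCM2-7 helicase, which CDC45 and GINS turn into an active motor, and geminin holds CDT1 back. Polymerase alpha-primase lays primers, replication factor C loads the PCNA clamp at them, and polymerases delta and epsilon extend the strands. Many of these genes are known as targets of E2F factors, whose cores lie close to transcription starts, and their transcripts peak as cells enter S phase.

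The promoters below, from RefSeq on GRCh38.p14, run from 250 bases before to 50 bases after the first start listed for each gene. They are shown as examples that differ in marking. PCNA was marked in both libraries, and RFC1, RFC2, RFC5 and MCM2 in the lactate-labelled library alone. ORC1 had regions in both but outside the gene-end windows, and CDT1 had none in either. Capitals mark E2F cores and CCAAT boxes on either strand, some of which overlap. The core searched was TTCCCGC in one form, TTCGCGC in another and TTGGCGC in the third.
PCNA, chr20:5126573-5126872, minus strand: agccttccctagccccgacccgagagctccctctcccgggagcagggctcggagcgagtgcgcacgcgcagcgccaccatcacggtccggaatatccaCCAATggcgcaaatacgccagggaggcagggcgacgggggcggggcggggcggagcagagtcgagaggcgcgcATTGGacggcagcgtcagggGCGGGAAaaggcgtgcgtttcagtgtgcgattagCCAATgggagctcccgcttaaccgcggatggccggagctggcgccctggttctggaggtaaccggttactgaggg
RFC1, chr4:39366313-39366612, minus strand: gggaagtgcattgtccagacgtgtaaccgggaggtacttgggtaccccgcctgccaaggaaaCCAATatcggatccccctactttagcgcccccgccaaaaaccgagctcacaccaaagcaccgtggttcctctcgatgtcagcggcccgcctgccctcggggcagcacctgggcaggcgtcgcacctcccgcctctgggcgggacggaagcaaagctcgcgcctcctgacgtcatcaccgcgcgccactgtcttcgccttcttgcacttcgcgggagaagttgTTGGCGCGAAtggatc
RFC2, chr7:74254350-74254649, minus strand: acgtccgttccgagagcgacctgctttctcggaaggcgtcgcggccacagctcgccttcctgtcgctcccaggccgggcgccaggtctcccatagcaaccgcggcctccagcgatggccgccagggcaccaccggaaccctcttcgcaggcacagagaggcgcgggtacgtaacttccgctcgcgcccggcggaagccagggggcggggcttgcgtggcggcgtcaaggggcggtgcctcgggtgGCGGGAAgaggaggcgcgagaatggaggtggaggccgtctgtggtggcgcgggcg
RFC5, chr12:118016453-118016752, plus strand: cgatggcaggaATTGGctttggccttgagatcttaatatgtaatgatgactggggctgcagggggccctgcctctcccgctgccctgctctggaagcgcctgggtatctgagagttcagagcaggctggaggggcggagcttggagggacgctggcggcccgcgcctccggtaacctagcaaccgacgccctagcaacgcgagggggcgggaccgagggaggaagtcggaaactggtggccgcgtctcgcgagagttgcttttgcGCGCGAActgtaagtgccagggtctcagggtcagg
MCM2, chr3:127598161-127598460, plus strand: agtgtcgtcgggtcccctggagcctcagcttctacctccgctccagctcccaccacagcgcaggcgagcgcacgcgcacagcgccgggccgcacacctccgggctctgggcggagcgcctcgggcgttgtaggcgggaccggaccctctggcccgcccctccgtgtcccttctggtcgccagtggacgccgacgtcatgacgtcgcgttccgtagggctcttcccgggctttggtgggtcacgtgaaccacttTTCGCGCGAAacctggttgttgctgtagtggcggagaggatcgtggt
ORC1, chr1:52404374-52404673, minus strand: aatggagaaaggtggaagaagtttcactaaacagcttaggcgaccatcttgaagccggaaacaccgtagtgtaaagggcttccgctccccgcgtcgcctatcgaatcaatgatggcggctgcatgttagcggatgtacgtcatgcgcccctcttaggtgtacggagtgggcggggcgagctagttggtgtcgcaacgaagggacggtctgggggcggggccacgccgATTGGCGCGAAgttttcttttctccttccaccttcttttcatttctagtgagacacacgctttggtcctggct
CDT1, chr16:88803539-88803838, plus strand: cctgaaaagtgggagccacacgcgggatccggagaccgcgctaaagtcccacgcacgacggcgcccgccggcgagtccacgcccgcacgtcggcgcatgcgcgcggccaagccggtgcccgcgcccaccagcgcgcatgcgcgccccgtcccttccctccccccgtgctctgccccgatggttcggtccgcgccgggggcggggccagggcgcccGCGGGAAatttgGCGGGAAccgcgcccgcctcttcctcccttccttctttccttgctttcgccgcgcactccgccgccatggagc

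A gene was called marked when a peak region overlapped 1 kb to either side of either gene end. By this rule 45 of the 50 genes were marked in the lactate-labelled library (90.0%, interval 78.2 to 96.7), against 49.5% of all protein-coding genes. In the untreated-labelled library 40 were marked (80.0%, interval 66.3 to 90.0), against 43.5% of all protein-coding genes. Both libraries shared 38 of the genes (39.8% of all protein-coding genes were shared). The lactate-labelled library alone held 7 (14.0%, against 9.70% of all genes), which were MCM2, RFC1, RFC2, RFC4, RFC5, POLD3 and POLE. The untreated-labelled library alone held 2 (4.00%, against 3.74%), GINS1 and POLE2. ORC1, CDT1 and PRIM1 were marked in neither. The marked shares of the list were thus far above the background in each library, while the shares in 1 library alone were nearer to it.

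**Figure D1:**
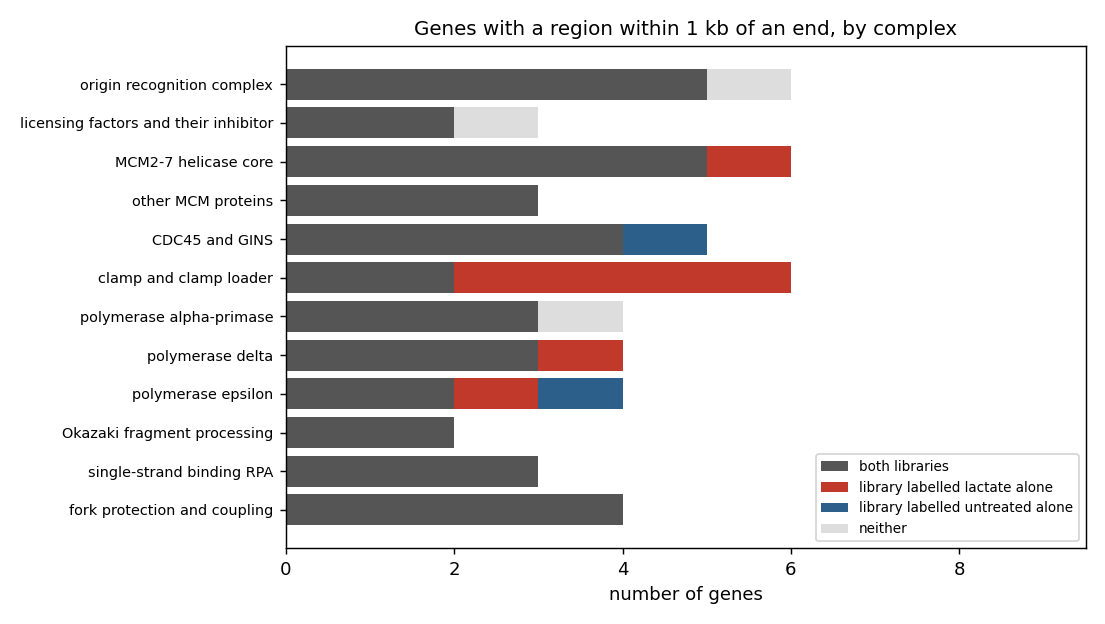
Number of genes in each complex with a region within 1 kb of an end, in both libraries (grey), in the lactate-labelled library alone (red), in the untreated-labelled library alone (blue) or in neither (light grey). The clamp and clamp loader group has 4 of its 6 genes in the lactate-labelled library alone, against 9.70% of all protein-coding genes.

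Fold enrichment is the authors' value for each peak, a ratio of tags at the summit to the local background, and ranks peaks within 1 list. Over the marked genes the median fold was 5.61 in the lactate-labelled library (lowest 2.66, highest 10.2), where all marked protein-coding genes had a median of 5.49. In the untreated-labelled library it was 6.03 (lowest 3.16, highest 8.99), with 5.14 over all marked genes. Within its own list, the median replication gene region stood at percentile 67.5 by fold in the lactate-labelled library (all marked genes 64.1) and at percentile 80.1 in the untreated-labelled library (all marked genes 63.6). Within the lactate-labelled list the replication genes thus stood near the other marked genes, and within the untreated-labelled list above them.

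**Figure D2:**
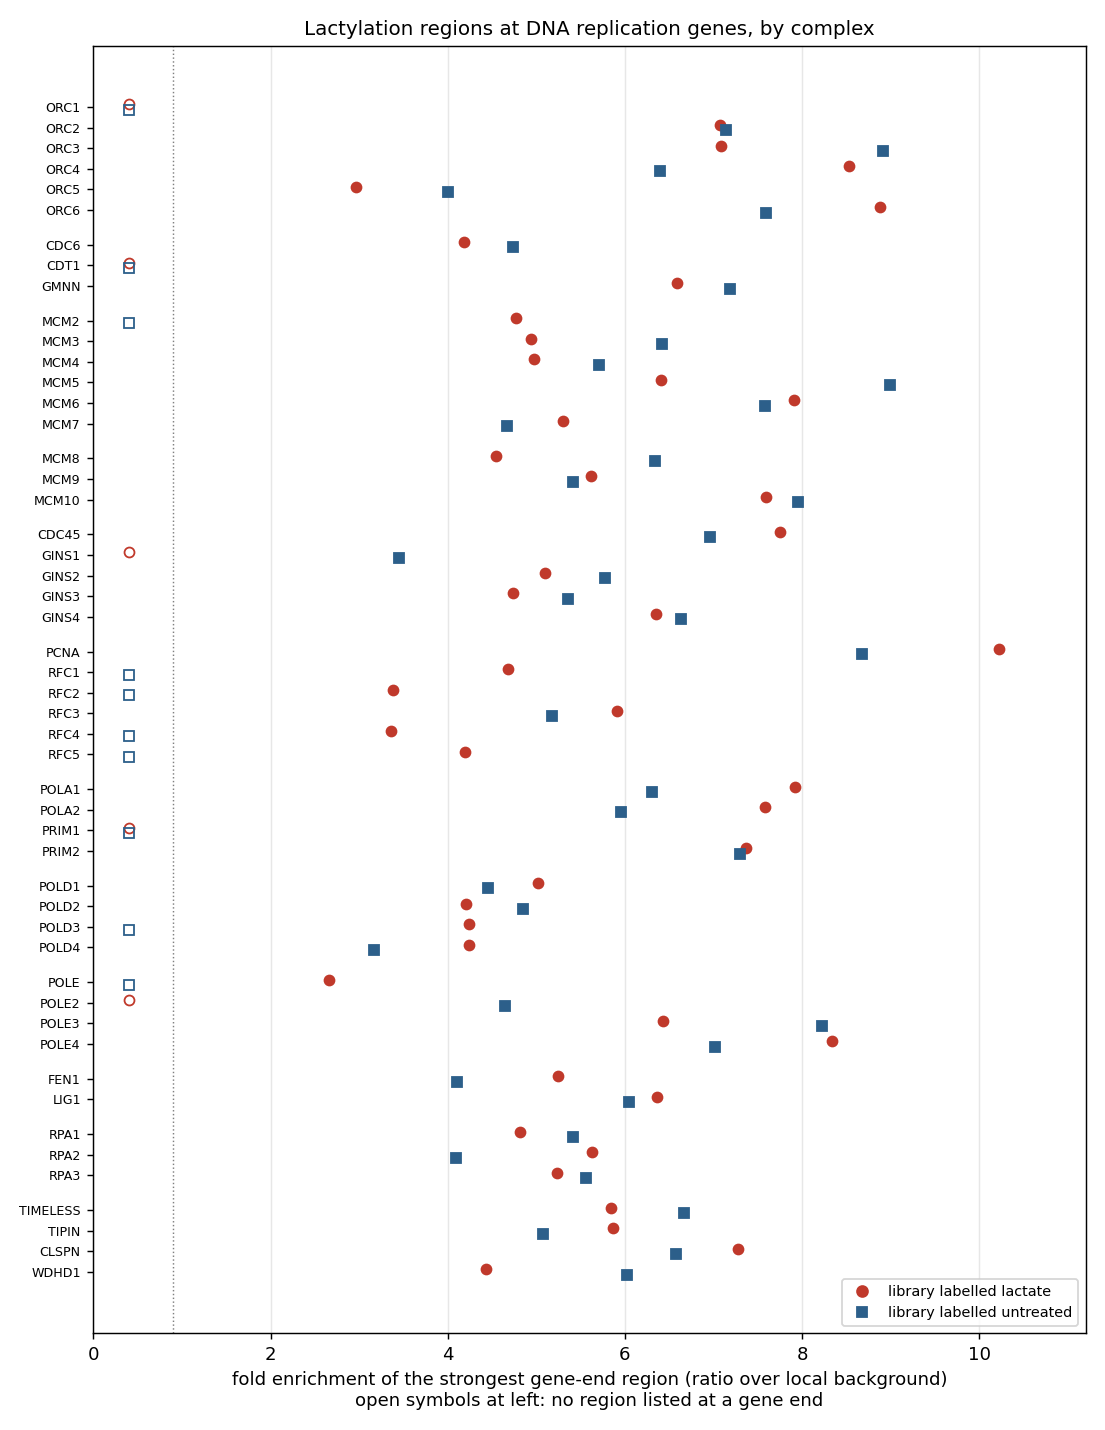
Fold enrichment (ratio, horizontal axis) of the strongest gene-end region of each of the 50 genes, ordered by complex, in the lactate-labelled (red circles) and untreated-labelled (blue squares) library. Open symbols at the left stand for genes with no region listed at an end. PCNA at 10.2 is the highest value in the lactate-labelled library and MCM5 at 8.99 in the untreated-labelled one.

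Of the 6 origin recognition genes, which encode the complex that marks origins, 5 were marked in both libraries. ORC6, for the smallest subunit, carried the highest pileup of the list, 72 tags in the lactate-labelled library (chr16:46688598-46690221) and 47 tags in the untreated-labelled library (chr16:46688569-46689927). Its folds were 8.88 and 7.59, and the regions lay across the facing ends of ORC6 and VPS35. ORC4 carried a fold of 8.53 in the lactate-labelled library (chr2:148020198-148021100) and 6.40 in the untreated-labelled library (chr2:148020318-148021039), in a stretch shared with MBD5. ORC3 had 7.09 (chr6:87589829-87590386) and 8.91 (chr6:87589921-87590279), in a stretch shared with RARS2. Their order thus differed between the lists. ORC2 was nearly level, with 7.07 in the lactate-labelled and 7.14 in the untreated-labelled library. ORC5 was the weakest, with 2.96 from 7 tags and 4.00 from 9 tags.

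ORC1, the regulated subunit that varies over the cell cycle, was unmarked by the rule because its only listed start lies 5080 bp inside the gene's annotated end. At that start both libraries had a region. In the lactate-labelled library it spanned chr1:52404370-52404643 with a fold of 8.78 and 32 tags, and in the untreated-labelled library chr1:52404414-52404632 with 6.86 and 23 tags. ORC1 thus resembled the other subunits once its start was used.

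Among the licensing genes, CDC6, an ATPase that loads the helicase, had folds of 4.18 in the lactate-labelled and 4.74 in the untreated-labelled library. GMNN, the geminin gene and inhibitor of CDT1, had 6.59 (chr6:24775202-24775940) and 7.19 (chr6:24774773-24775506). CDT1 itself had no region at its ends or start in either library. The nearest region lay 1258 bp from a CDT1 end in the lactate-labelled library and 2704 bp in the untreated-labelled library.

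All 6 genes of the MCM2-7 helicase were marked in the lactate-labelled library and 5 in the untreated-labelled library. MCM5 had a fold of 6.41 from 19 tags in the lactate-labelled library (chr22:35399807-35400147) and 8.99 from 31 tags in the untreated-labelled library (chr22:35399818-35400147). MCM6 had 7.91 from 24 tags (chr2:135876374-135876751) and 7.59 from 21 tags (chr2:135876374-135876740). These were the strongest of the helicase genes in both lists. MCM3 had 4.94 in the lactate-labelled and 6.42 in the untreated-labelled library, MCM4 4.98 and 5.71, and MCM7 5.30 and 4.67. MCM4 faces PRKDC, the gene of a DNA repair kinase, across a shared gene-end stretch, and MCM7 likewise faces AP4M1, so their regions belong to both genes of each pair. MCM2 was the exception, with a region in the lactate-labelled library alone (chr3:127598112-127598365, fold 4.77, 20 tags), in a stretch shared with an end of TPRA1. The nearest region of the untreated-labelled library lay 5882 bp away from it.

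The other MCM genes were marked in both libraries. MCM10, which helps the loaded helicase start, had 7.59 from 14 tags in the lactate-labelled library (chr10:13161363-13161613) and 7.95 from 15 tags in the untreated-labelled library (chr10:13161307-13161613). MCM8 had folds of 4.55 and 6.34 and MCM9, its partner in repair, 5.61 and 5.41. At MCM9 the 2 strongest regions were at different sites, each of which carried a region in both libraries.

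CDC45 and GINS join the MCM ring to form the moving helicase. CDC45 had a fold of 7.75 from 28 tags in the lactate-labelled library (chr22:19479083-19479903) and 6.96 from 26 tags in the untreated-labelled library (chr22:19479012-19479971), beside an end of UFD1. GINS2 had 5.09 and 5.78, GINS3 4.73 and 5.36, and GINS4 6.35 and 6.64. At GINS3 the regions of the libraries did not overlap and lay 179 bp apart. GINS1 had a region in the untreated-labelled library alone (chr20:25407615-25407991, fold 3.45, 9 tags), with no region of the lactate-labelled library within 16504 bp of it.

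Of the 12 groups, the clamp and its loader had the most genes marked in 1 library alone, and are singled out here by that count. PCNA, the sliding clamp gene, had a fold of 10.2 from 36 tags in the lactate-labelled library (chr20:5126419-5127064) and 8.67 from 33 tags in the untreated-labelled library (chr20:5126420-5127204), beside an end of CDS2. RFC3, a small loader subunit gene, was also marked in both, with 5.91 from 12 tags (chr13:33818024-33818340) and 5.17 from 11 tags (chr13:33818082-33818475). The other 4 loader genes were marked in the lactate-labelled library alone, as were 9.70% of all protein-coding genes.

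RFC1, for the large subunit, carried a region at its start (chr4:39366074-39366517, fold 4.68, 12 tags), and a weaker one at its far end. RFC2 carried one at its start (chr7:74254379-74254738, fold 3.38, 9 tags), as did RFC5 (chr12:118016490-118016829, fold 4.20, 11 tags). The nearest regions of the untreated-labelled library lay 16976 bp, 24951 bp and 29323 bp from them. RFC4 differed from these 3. Its region (chr3:186790309-186791029, fold 3.36, 14 tags) lay at the far end of the gene, next to EIF4A2, and 300 bp from a region of the untreated-labelled library that fell just outside the window. That region (chr3:186791329-186791679) had a fold of 4.00 and overlapped a lactate-labelled region with a fold of 2.75. Both libraries thus had regions close to this end, and the count of RFC4 in the lactate-labelled library alone hung on the window. The start of RFC4 had no region in either library. Of the 5 loader genes, 4 were thus marked at their start in the lactate-labelled library and 1, RFC3, in the untreated-labelled library. All 6 genes of the group held an E2F core in their promoter, so its presence could not tell those marked in both from those marked in 1.

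**Figure D3:**
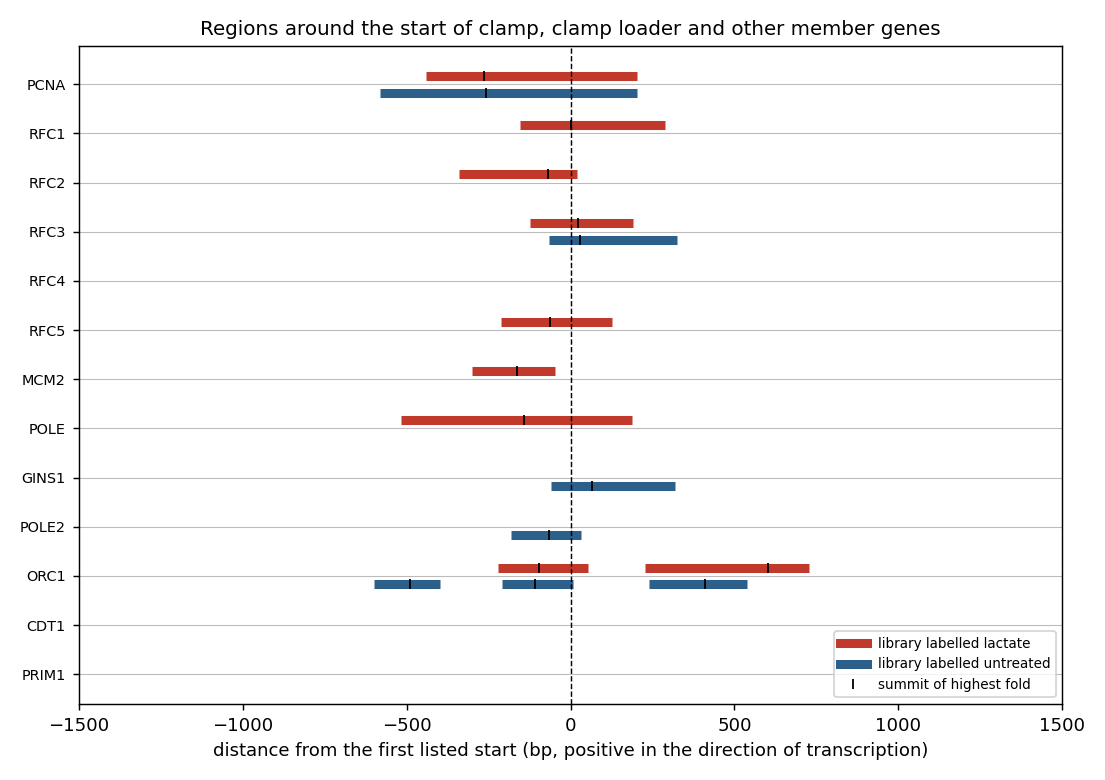
Peak regions near the first listed start of 13 genes (horizontal axis, bp, positive in the direction of transcription), from the lactate-labelled (red, upper) and untreated-labelled (blue, lower) library, with ticks at summits. RFC1, RFC2, RFC5, MCM2 and POLE show a red bar alone, GINS1 and POLE2 a blue bar alone, and RFC4, CDT1 and PRIM1 none.

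Polymerase alpha-primase, which makes the RNA-DNA primers, had 3 of 4 genes marked in both libraries. POLA1, for the catalytic subunit, had a fold of 7.92 from 18 tags in the lactate-labelled library (chrX:24693631-24693936) and 6.31 from 12 tags in the untreated-labelled library (chrX:24693476-24693957). POLA2 had 7.58 and 5.95. PRIM2, for the large primase subunit, had 7.36 (chr6:57222201-57222457) and 7.30 (chr6:57221772-57222457) at an outlying gene end that faces RAB23. A further PRIM2 region near its first listed start had 6.56 and 7.61. PRIM2 has partial copies elsewhere in the genome, so its reads are uncertain. PRIM1, for the catalytic primase subunit, had no region within 5910 bp of its ends in the lactate-labelled library or within 5960 bp in the untreated-labelled library.

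Polymerase delta, the lagging-strand enzyme, carried regions of lower fold. POLD1, for its catalytic subunit, had a fold of 5.02 from 27 tags in the lactate-labelled library (chr19:50383931-50384362) and 4.45 from 21 tags in the untreated-labelled library (chr19:50383965-50384363), beside an end of NR1H2. POLD2 had 4.21 and 4.85. POLD4 had 4.24 from 45 tags and 3.16 from 30 tags, on the highest local background of the list (9.84 and 8.80 tags). POLD3 had a region in the lactate-labelled library alone (chr11:74592472-74593115, fold 4.24, 14 tags). The median fold of the group, 4.24 in the lactate-labelled and 4.45 in the untreated-labelled library, was below that of the whole list in both.

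Polymerase epsilon, the leading-strand enzyme, was split within itself. POLE4 had 8.33 from 24 tags in the lactate-labelled library (chr2:74958481-74959154) and 7.01 from 22 tags in the untreated-labelled library (chr2:74958491-74959154), and POLE3 6.43 and 8.23 (chr9:113410003-113410844 and chr9:113410216-113410824), with POLE3 beside an end of C9orf43. These genes encode its small histone-fold subunits. POLE, for the catalytic subunit, was marked in the lactate-labelled library alone (chr12:132687156-132687858) with the lowest fold of the list, 2.66 from 12 tags, beside an end of PXMP2. POLE2 was marked in the untreated-labelled library alone (chr14:49688183-49688397, fold 4.64, 12 tags).

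The remaining 9 genes were marked in both libraries. LIG1, the ligase that seals Okazaki fragments, had 6.36 from 27 tags in the lactate-labelled library (chr19:48170275-48170768) and 6.04 from 21 tags in the untreated-labelled library (chr19:48170268-48170719), beside an end of ZSWIM9. FEN1, the flap endonuclease gene, had 5.25 and 4.10, in a stretch shared with an end of TMEM258. The single-strand binding genes were close to each other, with RPA1 at 4.81 and 5.42, RPA2 at 5.63 and 4.10, and RPA3 at 5.23 (chr7:7719317-7719619) and 5.56 (chr7:7719392-7719591). CLSPN, for the checkpoint adaptor claspin, had 7.27 from 23 tags (chr1:35769898-35770161) and 6.57 from 22 tags (chr1:35769859-35770336). The fork protection pair TIMELESS and TIPIN had 5.85 and 6.67, and 5.87 and 5.08. WDHD1, which ties polymerase alpha to the helicase, had 4.44 and 6.02.

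Genes marked in 1 library alone had regions of low fold. Their folds in the lactate-labelled library had a median of 4.20 (2.66 to 4.77, 7 genes), against 5.89 for the 38 genes marked in both. Over all protein-coding genes these medians were 4.27 and 5.88, so in that library both kinds of replication gene had medians close to the background. The other library lists no value where it has no peak, so the tags there are unknown. At a local background within 10% of that at RFC2, the weakest region listed in the untreated-labelled library had 8 tags, against 9 tags at RFC2 in the lactate-labelled library. The same pairs were 12 tags and 11 at POLE, 14 and 11 at RFC4, 11 and 7 at RFC5, 12 and 7 at RFC1, 14 and 9 at POLD3, and 20 and 10 at MCM2. In the other direction they were 9 and 8 at GINS1 and 12 and 7 at POLE2. RFC2, POLE and GINS1 thus stood 1 tag above that level, and MCM2 the farthest above it.

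**Figure D4:**
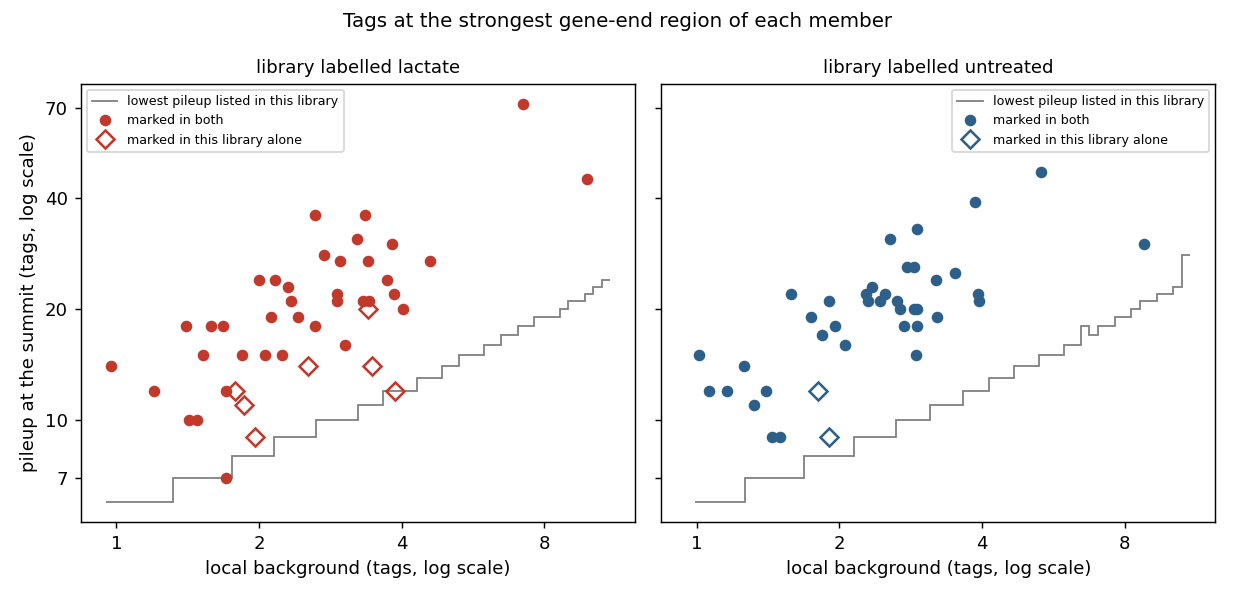
Tags at the summit (vertical axis) against the local background in tags (horizontal axis), both on log scales, for the strongest gene-end region of each marked gene in the lactate-labelled (left) and untreated-labelled (right) library. Filled circles are genes marked in both, open diamonds genes marked in that library alone, and the grey line is the lowest pileup listed at each background. The diamonds lie low, POLE, with 12 tags, next to the line.

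When only the strongest regions counted, the order of the libraries turned. With the 21840 regions of highest fold from each list, 26 of the 50 genes were marked in the lactate-labelled library and 34 in the untreated-labelled library, against 28.8% and 27.3% of all protein-coding genes. FEN1 and RPA2 were then in the lactate-labelled library alone, and 10 genes in the untreated-labelled library alone (CDC6, MCM3, MCM4, MCM8, GINS2, GINS3, POLD2, POLE2, RPA1 and WDHD1). Over all protein-coding genes the same lists left 7.29% in the lactate-labelled and 5.78% in the untreated-labelled library alone. The full lists differ in length (50352 lactate-labelled and 43680 untreated-labelled regions), so the lowest fold kept differed between them. POLE2 counted in the untreated-labelled library at a fold of 4.64, while GINS2 did not count in the lactate-labelled library at 5.09. Part of the turn is thus built into this setting. At a fold of at least 5, the genes in 1 library alone were 4 and 6, against 10.6% and 3.59% of all genes. The 7 genes first found in the lactate-labelled library alone had folds of 2.66 to 4.77, so a limit of 5 had to drop them. With a −log10 p of at least 7, recomputed from the tags, 4 genes were in each library alone. These shares over all protein-coding genes were 10.9% in the lactate-labelled and 3.55% in the untreated-labelled library. MCM2 stayed among the 4 of the lactate-labelled library. Why the order turned was not tested.

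The promoter table gives starts and strand for 44 of the 50 genes (all but MCM4, MCM5, GINS4, POLD3, RPA2 and RPA3), which separates gene starts from far ends. The strongest region lay at the start end in 38 of 39 such genes in the lactate-labelled library and in 35 of 35 in the untreated-labelled library, the exception being RFC4. Over all marked protein-coding genes with a listed start it lay there in 91.7% and 91.8%, close to these shares. Its summit was within 300 bp of a listed start in 35 of 38 (92.1%) and 32 of 35 (91.4%). Over all protein-coding genes with a region at the start end these shares were 73.4% and 73.4%. Most summits lay before the start, since 5 of 38 and 6 of 35 lay after it, against 22.0% and 21.5% over all genes. Relative to the start, the median summit stood at -84 bp in the lactate-labelled and -72 bp in the untreated-labelled library. PRIM2 was counted at the start end by its annotated gene end. Its summits stood at -92467 bp in the lactate-labelled and -92464 bp in the untreated-labelled library, far from any listed start.

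By listed starts, with a window of 1 kb to both sides, 39 of 44 genes were marked in the lactate-labelled library and 36 in the untreated-labelled library, against 52.0% and 46.1% of all protein-coding genes with a listed start. In the lactate-labelled library alone were 5 of the 44 (MCM2, RFC1, RFC2, RFC5 and POLE), against 9.27% of all protein-coding genes with a listed start. In the untreated-labelled library alone were 2 (GINS1 and POLE2), against 3.41%. Both counts were near the background. This count of starts was chosen after the data were seen.

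Where both libraries marked a gene, the site was mostly the same. The strongest regions overlapped in 35 of 38 genes (92.1%), against 90.2% of all genes marked in both, with a median of 38 bp between summits, against 36 bp over all genes. Both values were close to the background. The exceptions were MCM7, MCM9 and GINS3. At CLSPN the summits were at the same base, and at ORC2 1 bp apart. Another protein-coding gene end lay within 1 kb of the strongest region in 20 of 45 marked genes in the lactate-labelled library (44.4%) and 17 of 40 in the untreated-labelled library (42.5%), against 31.0% and 30.9% of all marked genes. No region was shared by a pair of replication genes, so each is a separate site.

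E2F cores were common in these promoters. Of the 44 promoters, 29 held at least 1 (65.9%), against 14.8% of the 15843 promoters of protein-coding genes. Of 46 matches, 35 began within 60 bp of the start. Counted from the start, the PCNA core begins at -59, the RFC2 core at -5, and the overlapping MCM2 cores at 3 and 6. CCAAT boxes were in 27 (61.4%, against 36.4%), and the GC box GGGCGG, searched on both strands, in 34 (77.3%, against 58.5%). CHR elements, written TTTGAA in one form and TTCGAA in the other, were in 1 promoter, of MCM6 (2.27%, against 13.5%). Median GC content was 65.3% against 62.7%. Among genes marked in both libraries, GC boxes were in 72.7% of replication gene promoters, against 71.3% of all such promoters. Median GC content there was 65% in each, while CCAAT boxes were in 63.6% against 40.1%.

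E2F cores were not evenly spread over the complexes. They were in 4 of 4 MCM2-7 promoters, in 6 of 6 of the clamp and loader, in 2 of 6 of origin recognition (ORC1 and ORC3) and in 0 of 3 of polymerase delta. Genes marked in both libraries held a core in 18 of 33 promoters. Those marked in the lactate-labelled library alone did in 6 of 6, those in the untreated-labelled library alone in 2 of 2, and those in neither, ORC1 included, in 3 of 3. These groups go by regions at either gene end, not at the promoter itself. The RFC4 promoter, among the 6, overlapped no region in either library, and the ORC1 promoter overlapped a region in both. Over all protein-coding genes the cores were in 18.9% of promoters of genes marked in both and 10.0% of those marked in neither. These splits were seen in the data and are given without a test. A match is a run of letters, not a bound site.

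**Figure D5:**
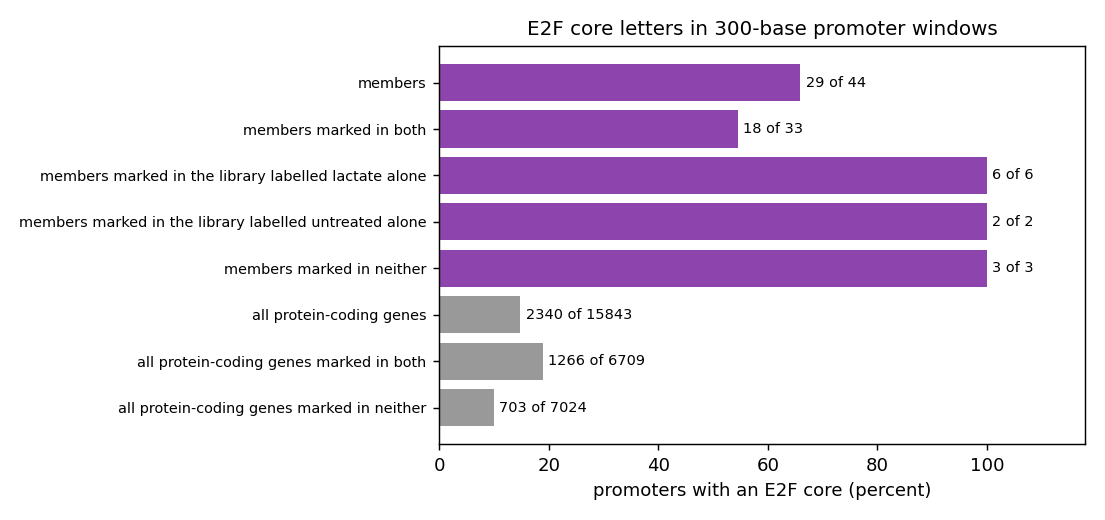
Share of promoter windows of 300 bases (percent) with at least 1 E2F core, for the replication genes (purple) and for protein-coding genes (grey), in all and by which library marked the gene end. The replication genes stand at 29 of 44 and all protein-coding genes at 2340 of 15843.

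Away from their ends, 18 of the 50 genes held a region inside the gene in the lactate-labelled library (36.0%) and 14 in the untreated-labelled library (28.0%), against 38.2% and 35.5% of all protein-coding genes. Inside PCNA a second listed start carried a region with 43 tags and a fold of 9.48 in the lactate-labelled library (chr20:5119349-5120363), and with 42 tags and 10.2 in the untreated-labelled library (chr20:5119384-5120319). Inside RPA3 a region had 47 tags and a fold of 10.3 in the lactate-labelled library (chr7:7640336-7641062) and 35 tags and 7.96 in the untreated-labelled library (chr7:7640325-7641143). The MCM9 region inside the gene, with folds of 4.52 and 4.23, is also at an end of ASF1A, a histone chaperone gene. RFC1, unmarked at its ends in the untreated-labelled library, held 2 regions inside the gene in each library, which overlapped, with highest folds of 4.72 in the lactate-labelled and 5.51 in the untreated-labelled library. MCM5 held 4 inner regions in the lactate-labelled library and 1 in the untreated-labelled library, none of them overlapping.

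A further 38 genes of replication, outside the 50, were counted the same way. Of these, 32 were marked in the lactate-labelled library (84.2%, interval 68.7 to 94.0) and 27 in the untreated-labelled library (71.1%, interval 54.1 to 84.6). DBF4B, RECQL4, LRWD1, CHTF18, RNASEH2A and RNASEH2B were marked in neither. In the lactate-labelled library alone were TOPBP1, MTBP and DONSON of origin firing, with folds of 4.14, 4.50 and 4.65, and DNA2 and RNASEH2C, with 4.33 and 3.44. None of the 38 was in the untreated-labelled library alone. Against the shares of all protein-coding genes (49.5% and 43.5% marked, 9.70% and 3.74% in the lactate-labelled and untreated-labelled library alone), the marked counts stood high and the counts in 1 library alone near the background. The regions of MTBP and DONSON lay beside ends of MRPL13 and CRYZL1. RIF1, a regulator of replication timing, was the strongest of the origin firing genes, with 10.7 and 10.1 (chr2:151409436-151410290 and chr2:151409471-151410259). TOP1, for topoisomerase I, had 8.37 and 11.1 (chr20:41028397-41028936 and chr20:41028427-41028899).

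Genes that supply nucleotides or handle histones at the fork were marked throughout, 9 of 9 and 7 of 7 in both libraries, against 39.8% of all protein-coding genes. SSRP1, for a subunit of the FACT chaperone, was marked in the untreated-labelled library through a region at its far end, beside TNKS1BP1, and its listed start had a region in the lactate-labelled library alone. The nucleotide supply genes had a median fold of 7.88 in the lactate-labelled library and 5.48 in the untreated-labelled library. All marked protein-coding genes had medians of 5.49 and 5.14, and folds rank peaks within 1 list only. RRM2B, a ribonucleotide reductase subunit gene, stood highest, with 8.88 from 53 tags and 6.25 from 32 tags. DCK, the deoxycytidine kinase gene, had 8.70 from 19 tags and 4.97 from 9 tags, and TYMS, for thymidylate synthase, 7.17 and 3.83. DCK and TYMS were chosen after their values were seen. The histone chaperone genes had medians of 6.74 and 4.78, with NASP highest in the lactate-labelled library at 7.41, against 5.04 in the untreated-labelled library, where SUPT16H led at 7.39. The alternative clamp loader genes had 3 of 4 marked in both, with DSCC1 at 5.73 and 4.44, beside an end of TAF2, and ATAD5 at 5.28 and 5.08.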

How the data were processed

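CUT&Tag with an antibody against lactylated lysine gave 1 library from lactate-treated and 1 from untreated CAL27 cells, of 15120031 and 15696147 tags. The submitters' processing notes name BWA (version not given in the sources used here), MACS2 2.1.0, fastp 0.20.0 and the build hg38. Per the file headers, MACS 2.1.0.20150420 called peaks in each library separately, with no control, at q 0.05, with a shift of -100 bp and an extension of 200 bp, on inputs tagged uni and dedup. For each summit the authors' deposited lists give a pileup, a signal in tags without depth scaling. The deposited lists also give a fold enrichment, the ratio of pileup to local background after 1 was added to each. Background was recomputed from these values, and −log10 p from a Poisson upper tail. Antibody signal was not separated from transposase cutting of open chromatin, as no antibody-free library was analysed here. Summits with the same start and end were collapsed to 1 region, represented by its highest fold. Genes, starts and promoters came from RefSeq tables for GRCh38.p14, the build of the peaks, and coordinates are 1-based. Overlap means at least 1 bp.

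The 50 genes, their complexes and the 38 further genes were chosen with earlier results of these data known. Coordinates are given for genes marked in 1 library alone, for the 5 of highest fold in each library and for the gene of highest summed fold in each complex, and a few others chosen after their values were seen. No test was made, as each group has 1 library. Overlaps were checked with bedtools 2.31.1 and tested on simulated data. Alternatives were the window, stricter peaks, equal lists, summits, a 5 kb exclusion, a larger overlap and listed starts. Scripts ran in Python 3.11.15 with SciPy 1.17.1 for intervals, pandas 2.3.3, matplotlib 3.10.9 and numpy 2.4.6.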

Additional observations from a re-analysis of the deposited data

How the results depend on the processing

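Each count was repeated with the settings changed one at a time. Windows of 500 bp or 2 kb, and summits in place of regions, left all counts of marked genes within 1.5 times of those reported and the lactate-labelled library ahead. The genes in the lactate-labelled library alone changed, however. The 2 kb window took out RFC4 and put in CDT1, the 500 bp window added ORC4 and POLD2, and the use of summits took out RFC4. RFC1, RFC2 and RFC5 stayed under all of these. At a fold enrichment of at least 5, the genes marked were 28 in the lactate-labelled library and 24 in both, with 4 in the lactate-labelled and 6 in the untreated-labelled library alone, a difference of -2 in place of 5. Where a −log10 p of 7 or more, recomputed from the tags, was required, there were 4 in each library alone, a difference of 0, against 10.9% and 3.55% of all protein-coding genes in the lactate-labelled and untreated-labelled library alone. With equal lists of the strongest regions, 26 genes were marked in the lactate-labelled library and 24 in both, with 2 and 10 in the lactate-labelled and untreated-labelled libraries alone, a difference of -8. Fewer regions entered each of these counts, and the cause of the turn was not tested. Equal lists also kept regions from a lower fold in the untreated-labelled library than in the lactate-labelled one. The difference was 3 where the other library could have no region within 5 kb, and 3 by listed starts, an alternative chosen after seeing the data. The 5 kb setting left 5 genes in the lactate-labelled and 2 in the untreated-labelled library alone, against 6.51% and 2.4% of all protein-coding genes. RFC4 and POLD3 dropped out under it. Taking the region nearest the listed start gave a median fold of 5.25 in the lactate-labelled library in place of 5.61. It changed the value of ORC4 and MCM7 in that library and of MCM7 and MCM9 in the other. Shared sites by an overlap of at least 50% of the shorter region were 46 of 58 in the lactate-labelled library and 44 of 48 in the untreated-labelled one. By an overlap of at least 1 bp they were 47 of 58 and 44 of 48. The share over all gene-end regions is not given here, so these counts are not set against a background. No paired analysis was possible because each group has 1 library. Regions of 7 to 12 tags limit what can be said of single genes.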
